A study of Homo sapiens with 6 samples.

Results

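Respiratory complex I was followed through the mRNAs of its subunits, which are made from both the nuclear and the mitochondrial genome. The members reported were 37 protein-coding genes whose symbols carry the NDUFA, NDUFB, NDUFC, NDUFS or NDUFV stem with a number, NDUFAB1 included, and the 7 mitochondrial genes MT-ND1, MT-ND2, MT-ND3, MT-ND4, MT-ND4L, MT-ND5 and MT-ND6. These 44 genes were part of a table of 62754 genes, and all 44 passed the filter on low counts. RNA was sequenced from 3 control libraries and 3 FAM60A-knockout libraries of HEK293, an adherent human embryonic kidney line. The labels also name HEK293T, the derivative with the large T antigen. The knockout cells had been given a Cas9 vector with several guide RNAs directed at FAM60A and were kept as a puromycin-selected pool, not as a clone, and the labels describe the other libraries only as control. FAM60A belongs to the Sin3/HDAC complex, which removes acetyl groups from histones. Values of a group are given throughout in the order of replicates 1, 2 and 3. Library totals were 92736586, 93172005 and 93346824 counts across the control replicates, and 88361827, 91279417 and 90771711 counts across the knockout replicates.

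Complex I, the NADH:ubiquinone oxidoreductase of the inner mitochondrial membrane, takes electrons from NADH, passes them along a chain of iron-sulfur clusters to ubiquinone, and pumps protons out of the matrix. Its matrix arm holds an N module, where NADH is oxidised, and a Q module, where ubiquinone is reduced, and its membrane arm holds the proton pumps. The mitochondrial genome encodes core subunits of the membrane arm only, whereas nuclear genes encode the core of the matrix arm and every accessory subunit, so that assembly draws on the output of both genomes.

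The edited gene was examined first. FAM60A, listed under its current symbol SINHCAF, had 11028, 10165 and 12792 counts across the control replicates and 5684, 5793 and 5449 counts across the knockout replicates. All 3 knockout libraries were below all 3 controls. On the CPM scale, which gives counts per 1e6 counts of a library after trimmed-mean scaling, expression fell from 117 ± 13.7 to 65.1 ± 3.01 (SD, n = 3 each). The log2 fold change was -0.85 ± 0.11 (standard error), with an adjusted p of 0.00863 by edgeR's quasi-likelihood test with Benjamini-Hochberg adjustment, the test behind every adjusted p below. The call was lost in each of the 3 fits that left out a knockout library, with log2 fold changes between -0.92 and -0.78 over all 6 fits of this kind. Nothing states whether the libraries of a group came from separate cultures, so p-values measure the spread between these libraries, which may be technical.

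The cell line was checked against markers. All 9 HEK293 markers, among them PAX2, LHX1, VIM and KRT8, had at least 10 counts in every library. Their summed level was 1679, 1732 and 1003 CPM across the control replicates and 844, 953 and 803 CPM across the knockout replicates, with KRT8 the most abundant and NEFM the least. The sum was lower in every knockout library than in any control, and control replicate 3 was nearer to the knockout libraries than to the other controls. LHX1 (log2 fold change -1.92) and NEFM (-0.77) fell and 0 rose, so that 22.2% of the 9 were called, beside 16.6% of all genes tested. Both were called in only 1 of the 6 fits that each dropped a library, that without control replicate 3 (-2.32 and -0.78). The 6 markers of MDA-MB-231, the breast cancer line also edited in the study, summed to 256, 262 and 192 CPM across the control replicates and 210, 221 and 209 CPM across the knockout replicates. MSN was the most abundant and AXL the least, and all 6 were above 10 counts in every library. In edgeR, 0 of the 6 passed the threshold and 2 had an unadjusted p under 0.05, both lower, beside 18.4% of all genes tested. In the fit without control replicate 3, 1 of these 6 was called higher and 4 lower. The 9 HEK293 markers gave 1 higher and 6 lower in that fit, beside 32.4% and 33.2% of all genes tested. VIM, counted with the HEK293 markers, is shared by both lines. It stood at 694, 707 and 299 CPM across the control replicates and 264, 309 and 252 CPM across the knockout replicates. The HEK293 sum therefore does not by itself tell the lines apart. What these marker levels have to do with the subunits was not tested.

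Across the 44 genes, 7 rose in the knockout libraries and 0 fell, which is 15.9% of the members against 16.6% of all 20992 genes tested (7.96% higher and 8.67% lower). With a further limit of 1 on the size of the log2 fold change, 3 members were called, MT-ND4, MT-ND6 and NDUFB9, against 7.06% of all genes. The share of members called was thus near the background. More of the 7 were mitochondrial than nuclear. Of the 7 mitochondrial subunits, MT-ND1, MT-ND2, MT-ND4 and MT-ND6 rose (57.1%), and of the 37 nuclear subunits, NDUFB9, NDUFB8 and NDUFA12 rose (8.11%). At an unadjusted p under 0.05, edgeR gave 16 higher and 2 lower members, beside 16.1% and 18.4% of all genes. DESeq2 with its own adjustment called 11 higher and 2 lower, the lower ones being NDUFS7 and NDUFA11, beside 11.9% and 15.0% of all genes. The median log2 fold change was 0.99 over the mitochondrial members, 0.14 over the nuclear members and -0.01 over all genes tested. Scaling by library size alone lowered the median of all genes by 0.11 on the log2 scale, and fold changes are to be read relative to that shift. With library size alone, 4 members were called higher and 2 lower, beside 5.88% and 12.7% of all genes. With limma-voom and quantile normalization, which also changes the test, 7 were called higher and 1 lower, beside 8.71% and 8.46% of all genes. Because bulk RNA was sequenced, fewer cells with a transcript and less transcript per cell cannot be told apart.

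These calls depended on single libraries. Without control replicate 3, the count was 29, with 20 higher and 9 lower members, against 65.6% of all genes tested in that fit (32.4% higher and 33.2% lower). Without control replicate 1 it was 4 (MT-ND1, MT-ND2, MT-ND6 and NDUFB9), and without control replicate 2 it was 3 (MT-ND1, MT-ND6 and NDUFB9), beside 4.89% and 3.71% of all genes. Leaving out knockout replicate 1, 2 or 3 gave 1 called member each time, NDUFB9, beside 0.763%, 2.31% and 0.87% of all genes, so that calls were fewer across the whole table as well. Log2 fold changes in these 6 fits ranged between 0.73 and 0.83 for MT-ND1, 0.63 and 0.77 for MT-ND2, 0.79 and 1.27 for MT-ND4, 1.80 and 2.26 for MT-ND6, and 1.23 and 1.42 for NDUFB9. Control replicate 3 is therefore set apart below. Over the 37 nuclear subunits, the root mean square log2 distance was 0.205 between control replicates 1 and 2, and between 0.189 and 0.225 among the knockout libraries. It was 0.49 between control replicates 1 and 3, and between 0.409 and 0.518 for controls against knockout libraries. Over the 7 mitochondrial subunits it was 0.54 between control replicates 1 and 2, 0.579 between 1 and 3, and 0.916 between 2 and 3. Control replicate 3 had the highest or the lowest level of all 6 libraries for 59.5% of the nuclear subunits, 5 above and 17 below, against 51.5% of all genes tested. For the 7 mitochondrial subunits, that number was 0.

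**Figure D1:**
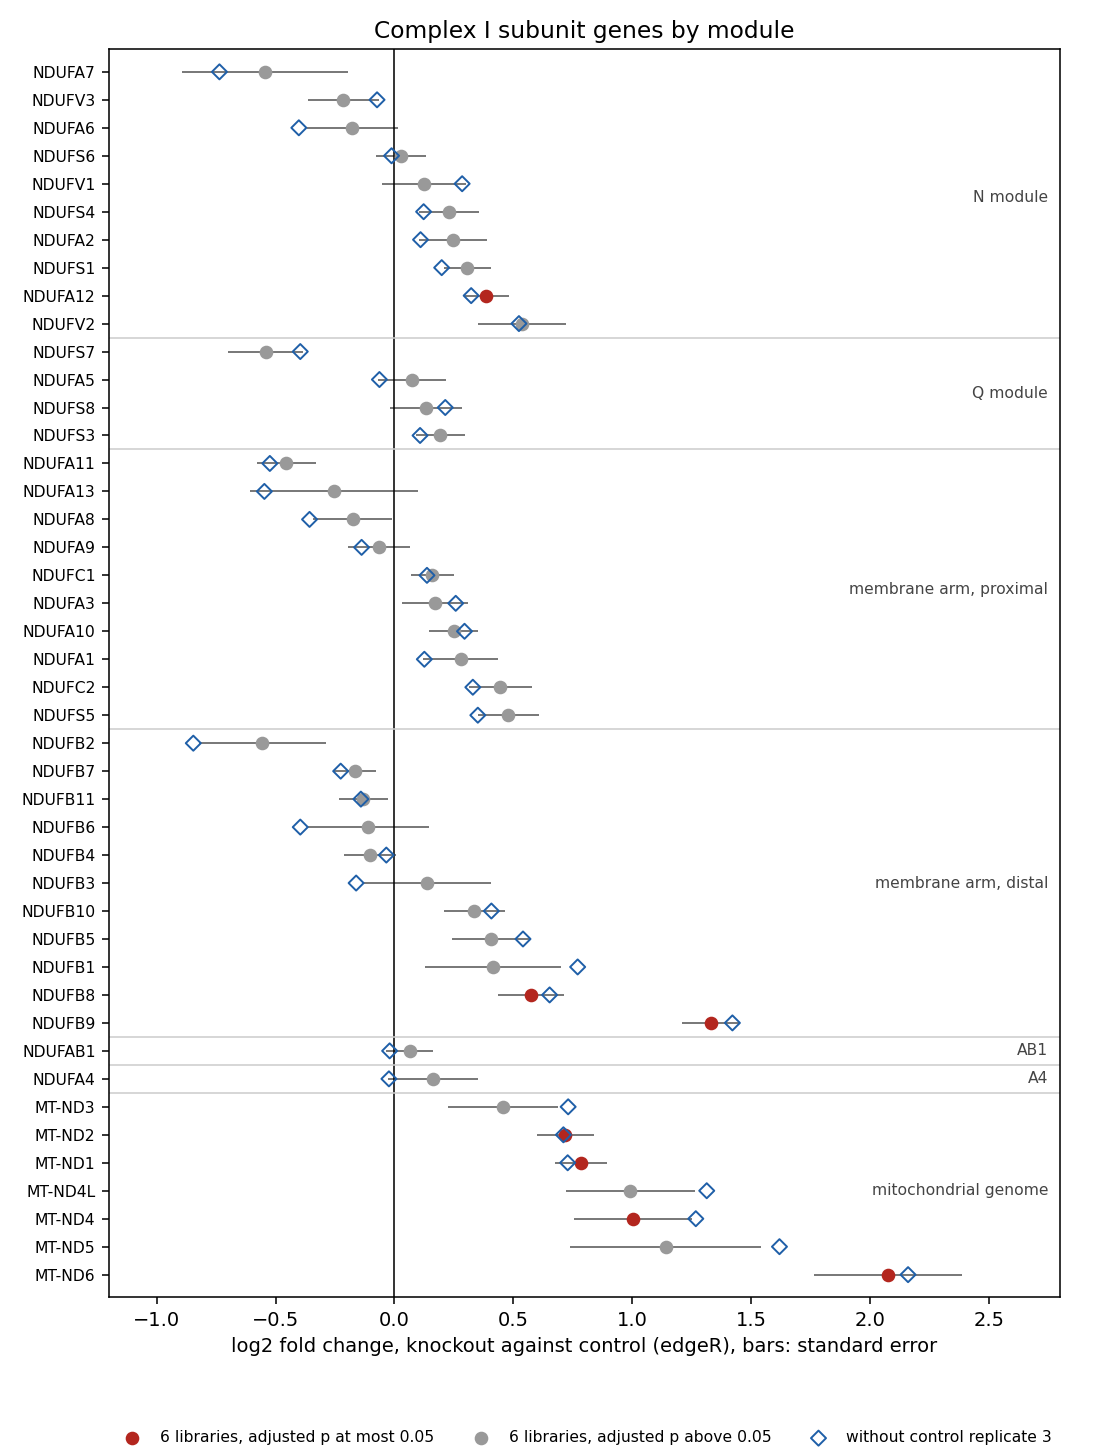
Log2 fold change of knockout against control for the 44 subunit genes (horizontal axis), grouped by module; filled points are the edgeR fit on 6 libraries with standard errors as bars, red where the adjusted p was at most 0.05, and open diamonds are the fit without control replicate 3. The 7 mitochondrial genes lie to the right, between 0.46 and 2.08, NDUFB9 stands out among the nuclear genes at 1.33, and most of the others lie within 0.6 of 0.

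The 7 mitochondrial subunits form the membrane core that translocates protons. They are described in the order of their genes on the mitochondrial genome (human reference sequence of RefSeq GRCh38.p14). MT-ND1, which lines the entrance to the ubiquinone site, lies at positions 3307 to 4262. It stood at 1613, 1373 and 1418 CPM across the control replicates and at 2393, 2623 and 2571 CPM across the knockout replicates. The controls lay close together, control replicate 3 among them, and all were below the knockout libraries. MT-ND1 rose from 1468 ± 128 to 2529 ± 121 CPM (SD, n = 3 each), a log2 fold change of 0.78 ± 0.11 with an edgeR adjusted p of 0.0099. MT-ND2, an antiporter-like proton channel at positions 4470 to 5511, stood at 2192, 1766 and 2073 CPM across the controls and 3120.4, 3360.1 and 3451 CPM across the knockout libraries. Again no control reached the lowest knockout library, and MT-ND2 rose by 0.72 ± 0.12 on the log2 scale (edgeR adjusted p = 0.0152).

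MT-ND3 (positions 10059 to 10404), which carries a loop beside the ubiquinone site, had 644, 663 and 1114 CPM across the control replicates and 1169.8, 992 and 1165 CPM across the knockout replicates. This was the only mitochondrial subunit whose groups overlapped, since control replicate 3 was above knockout replicate 2. Its log2 fold change was 0.46 ± 0.23, with an edgeR adjusted p of 0.212, and 0.73 without control replicate 3, where MT-ND3 was called. MT-ND4L and MT-ND4 follow at positions 10470 to 10766 and 10760 to 12137. They are carried on a single bicistronic mRNA, in which the end of one reading frame is the start of the next, and the sequences around the junction are shown because reads across it belong to both genes. In the transcripts of GENCODE v44 on GRCh37, the last 30 bases of MT-ND4L and the first 30 bases of MT-ND4 read as follows, with the 7 shared bases in capitals.
MT-ND4L: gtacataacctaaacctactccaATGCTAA
MT-ND4: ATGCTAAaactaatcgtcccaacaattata
The capitals hold the start codon of MT-ND4 and, read in the frame of MT-ND4L, its last codons, so that 2.4% of the MT-ND4L bases and 0.5% of the MT-ND4 bases are shared.

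MT-ND4L, a small subunit of the proton path, had 542.5, 433 and 890.4 CPM across the control replicates and 1212, 1118.5 and 1384 CPM across the knockout replicates. MT-ND4, another antiporter-like channel, had 3669, 2672 and 5327 CPM across the controls and 7441, 7829 and 8128.5 CPM across the knockout libraries. In both genes, control replicate 3 was the highest control and remained below every knockout library. MT-ND4 rose by 1.004 ± 0.25 on the log2 scale (edgeR adjusted p = 0.0416), or by 1.27 without control replicate 3, the only one of the 6 fits without one library in which it was called. The call was also lost with library size alone (0.90, edgeR adjusted p = 0.0524) and with limma-voom and quantile normalization (0.41, limma adjusted p = 0.273). The log2 fold change of MT-ND4L was 0.99 ± 0.27 with an edgeR adjusted p of 0.0533, just above the threshold. It was 1.31 without control replicate 3, where MT-ND4L was called.

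MT-ND5, the outermost antiporter-like channel at positions 12337 to 14148, varied widely among the controls. Its levels were 2073, 1406 and 3944 CPM across the control replicates and 5426, 4049 and 6900.2 CPM across the knockout replicates. Control replicate 3 lay just below knockout replicate 2, so that the groups did not overlap by a narrow margin. The log2 fold change of 1.14 ± 0.40 did not pass the test (edgeR adjusted p = 0.100) and was 1.62 without control replicate 3, where MT-ND5 was called. MT-ND6, at positions 14149 to 14673, is the only mitochondrial protein gene read from the opposite strand, and its mRNA is known to lack a lasting poly(A) tail. It had 503, 231 and 457 CPM across the control replicates and 1442, 1579.8 and 2003 CPM across the knockout replicates. Every knockout library was far above every control, control replicate 3 included, and MT-ND6 rose by 2.08 ± 0.31 on the log2 scale (edgeR adjusted p = 0.0117), the largest fold change of the 44 members. Libraries were poly(A)-selected, and the share of MT-ND6 transcripts captured in each library was not tested. MT-ND6 and MT-ND5 abut on opposite strands. The paper describes strand-specific libraries, but the strand setting of the counting is not given in the sources used here.

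**Figure D2:**
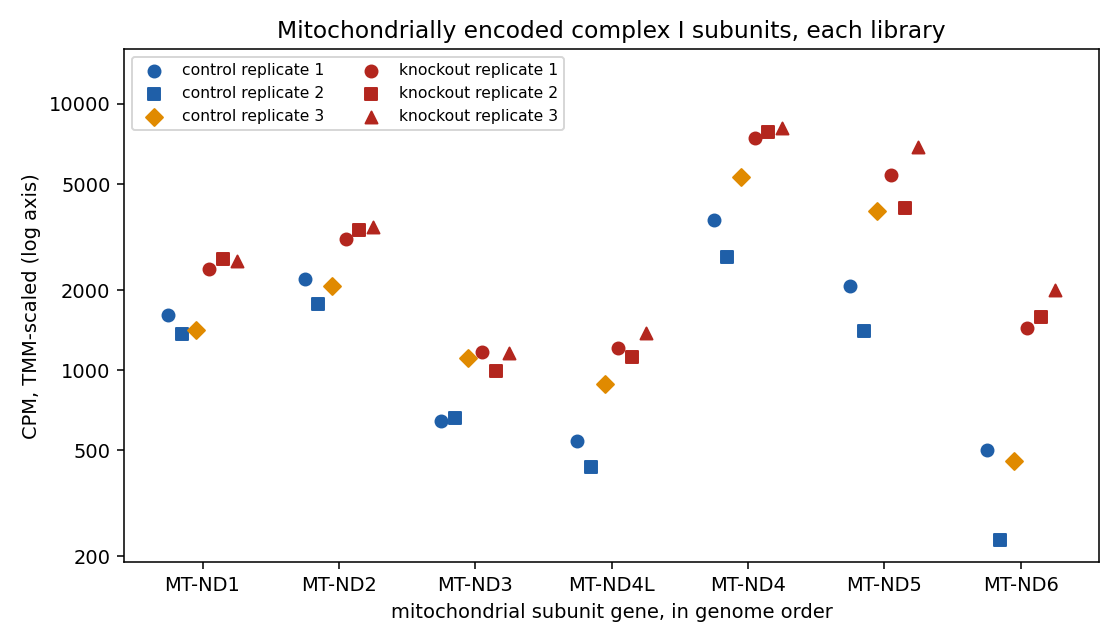
CPM after trimmed-mean scaling (vertical axis, logarithmic) of the 7 mitochondrial subunit genes in genome order, 1 point per library, with control replicate 3 in orange. The 3 knockout libraries lie above all controls for each gene except MT-ND3, and control replicate 3 lies between the other controls and the knockout libraries for MT-ND4L, MT-ND4 and MT-ND5, but within or beside the other controls for MT-ND1, MT-ND2 and MT-ND6.

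In all, the groups did not overlap for 6 of the 7 mitochondrial subunits, each with the knockout libraries higher, beside 21.5% of all genes tested. With library size alone it was 5 (16.0% of all genes), since control replicate 3 then stood above knockout replicate 2 in MT-ND5, at 0.408% against 0.389% of counts. The proportions among these mRNAs also differed between libraries. The ratio of MT-ND6 to MT-ND1 was 0.312, 0.168 and 0.322 across the control replicates and 0.603, 0.602 and 0.779 across the knockout replicates, so that it was higher in every knockout library, 2.47 times the control mean. By contrast, the ratio of MT-ND5 to MT-ND1, at 1.29, 1.02 and 2.78 across the controls and 2.27, 1.54 and 2.68 across the knockout libraries, was highest in control replicate 3 and overlapped between the groups. The ratio of MT-ND4 to MT-ND1 overlapped too, at 2.27, 1.95 and 3.76 against 3.11, 2.98 and 3.16. These ratios need no scaling between libraries. Control replicate 3 stood apart from the other controls by its high MT-ND4 and MT-ND5 relative to MT-ND1. In MT-ND5 to MT-ND1 it was near knockout replicate 3 (2.78 and 2.68), and in MT-ND6 to MT-ND1 near control replicate 1 (0.322 and 0.312).

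The nuclear core subunits build the matrix arm and hold the flavin and the iron-sulfur clusters. In the N module, NDUFV1 binds NADH and the flavin, and NDUFV2 and NDUFS1 carry clusters. NDUFV1 had 118, 142 and 186 CPM across the control replicates and 152, 177 and 158 CPM across the knockout replicates. The groups overlapped, with the highest level in control replicate 3, and the log2 fold change was 0.12 ± 0.18 (edgeR adjusted p = 0.653). NDUFS1 stood at 138, 133 and 115 CPM against 159.5, 159.4 and 158.6 CPM. All 3 knockout libraries were above the controls and within 1 CPM of each other, and the log2 fold change was 0.31 ± 0.10 with an edgeR adjusted p of 0.0809. NDUFV2 was listed at 0.80, 0.85 and 0.86 CPM against 1.06, 1.27 and 1.33 CPM, far below its partners of the same module, and its log2 fold change was 0.54 ± 0.18 (edgeR adjusted p = 0.0939). Without control replicate 3, NDUFV1, NDUFS1 and NDUFV2 were called higher, at log2 fold changes of 0.285, 0.199 and 0.524. The few counts of NDUFV2 are taken up again with its processed copy.

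The Q module, where ubiquinone is reduced, was described through NDUFS7, NDUFS3 and NDUFS8. NDUFS7, which carries the last cluster before ubiquinone, was the one nuclear core subunit described here with a negative fold change. It had 37.5, 42.5 and 55.7 CPM across the controls and 30.6, 32.6 and 29.9 CPM across the knockout libraries. The knockout libraries were lower without overlap, but the spread of the controls was wide and the log2 fold change of -0.54 ± 0.16 did not pass (edgeR adjusted p = 0.0642). Without control replicate 3, which here lay farthest from the knockout libraries, it was -0.40 and NDUFS7 was called. NDUFS3, an early building block of the Q module, had 101, 115 and 95.9 CPM against 125, 118 and 113 CPM, and NDUFS8, a cluster-bearing subunit, had 58.9, 72.2 and 81.7 CPM against 73.6, 88.1 and 71.5 CPM. Both overlapped between the groups, with edgeR adjusted p-values of 0.228 and 0.573.

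The accessory subunits surround the core and are needed for its assembly and stability. The largest change among the 37 nuclear members was that of NDUFB9, a LYR-motif protein of the distal membrane arm that holds an acyl carrier protein. Its levels were 94.2, 98.6 and 122 CPM across the control replicates and 270.0, 254 and 268 CPM across the knockout replicates. Every knockout library was above every control by a wide margin, and NDUFB9 rose from 105 ± 14.9 to 264 ± 8.69 CPM (SD, n = 3 each), or 2.52-fold. The log2 fold change was 1.33 ± 0.12 with an edgeR adjusted p of 0.0037, and NDUFB9 was called in all 14 alternative fits. NDUFB8, another distal membrane arm subunit, had 13.9, 15.9 and 18.5 CPM across the controls and 25.1, 24.3 and 22.4 CPM across the knockout libraries. NDUFA12, a matrix arm subunit that replaces its paralog NDUFAF2 late in assembly, had 84.7, 82.3 and 78.1 CPM across the controls and 105.6, 116 and 98.7 CPM across the knockout libraries. Neither gene overlapped between the groups, and both rose, NDUFB8 by 0.57 ± 0.14 (edgeR adjusted p = 0.0388) and NDUFA12 by 0.39 ± 0.10 (edgeR adjusted p = 0.0409) on the log2 scale. Both calls were lost in every fit without one library except that without control replicate 3, where the log2 fold changes were 0.65 and 0.32. With library size alone neither was called (0.46 and 0.28).

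The remaining accessory subunits did not pass the test in 6 libraries. NDUFS5, an intermembrane-space subunit and the nuclear member with the highest level per length, came closest, at 208, 237 and 179 CPM across the control replicates and 303, 268 and 300.0 CPM across the knockout replicates (log2 fold change 0.48, edgeR adjusted p = 0.0502). NDUFA11, a membrane arm subunit, had 23.3, 26.8 and 23.1 CPM against 17.3, 19.8 and 16.4 CPM, lower in every knockout library (log2 fold change -0.45, edgeR adjusted p = 0.0546). NDUFB2, of the distal membrane arm, had 146, 180.0 and 82.7 CPM across the controls and 97.8, 91.1 and 89.5 CPM across the knockout libraries. For NDUFB2, control replicate 3 was the lowest of all 6 libraries. The log2 fold change was -0.56 ± 0.27 (edgeR adjusted p = 0.196) with all libraries and -0.85 without control replicate 3, where NDUFB2 was called. NDUFA7, a peripheral matrix arm subunit and the lowest nuclear member per length, stood between 0.18 and 0.39 CPM in all 6 libraries and overlapped between the groups. NDUFAB1, the mitochondrial acyl carrier protein, which complex I shares with fatty acid synthesis, and NDUFA4, which is now assigned to cytochrome c oxidase, had log2 fold changes of 0.06 (edgeR adjusted p = 0.684) and 0.16 (edgeR adjusted p = 0.582), and both turned negative without control replicate 3, at -0.02 and -0.02.

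By module, 1 of 10 N module genes, 0 of 4 Q module genes, 0 of 10 genes of the proximal membrane arm and 2 of 11 genes of the distal membrane arm rose in edgeR's test, beside 7.96% of all genes tested. Of the modules with 0 calls, the proximal membrane arm had 4 genes and the Q module 1 gene with an unadjusted p under 0.05. Of all genes tested, 16.1% were higher and 18.4% lower at that limit. The median log2 fold changes of these modules were 0.18, 0.10, 0.17 and 0.14. Over the 37 nuclear subunits, the groups did not overlap in 11 genes with the knockout libraries higher and in 3 with them lower, where 21.5% and 20.1% of all genes tested did so (41.6% in either direction). With library size alone the numbers were 7 and 6, beside 16.0% and 26.0% of all genes. Without control replicate 3, 13 of the 37 nuclear members were called higher and 9 lower, beside 32.4% and 33.2% of all genes tested in that fit. The 13 higher ones were NDUFS1, NDUFS5, NDUFV1, NDUFV2, NDUFA3, NDUFA10, NDUFA12, NDUFB1, NDUFB5, NDUFB8, NDUFB9, NDUFB10 and NDUFC2. The 9 lower ones were NDUFS7, NDUFA6, NDUFA7, NDUFA8, NDUFA11, NDUFA13, NDUFB2, NDUFB6 and NDUFB7. Of these, NDUFB6 illustrates the part of the third control, with 99.3, 110.4 and 53.9 CPM across the control replicates and 84.6, 78.4 and 81.2 CPM across the knockout replicates. Control replicate 3 was below, and the other controls above, all knockout libraries.

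Summed over each genome, the 7 mitochondrial subunits took 1.18%, 0.881% and 1.58% of all counts across the control replicates and 2.12%, 2.07% and 2.49% across the knockout replicates. The share was higher in every knockout library, with means of 1.21 ± 0.349% and 2.23 ± 0.231% (SD, n = 3 each), or 1.84-fold. The 37 nuclear subunits summed to 2897, 3263 and 2836 CPM across the controls and 3503, 3341 and 3326 CPM across the knockout libraries, or 1.13-fold. This sum did not overlap between the groups, but without NDUFB9 it did, at 2802.5, 3164 and 2714 against 3233, 3087 and 3058 CPM. As a share of all counts without trimmed-mean scaling, the nuclear sum also overlapped, at 0.304%, 0.336% and 0.294% against 0.334%, 0.321% and 0.324%. Counts of mitochondrial over nuclear subunits stood at a ratio of 3.88, 2.62 and 5.37 across the control replicates and 6.34, 6.45 and 7.70 across the knockout replicates. This ratio, which does not depend on scaling, was higher in every knockout library, 1.73 times the control mean with all controls and 2.10 times without control replicate 3. Sums were not tested, since the members were chosen with earlier results known.

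**Figure D3:**
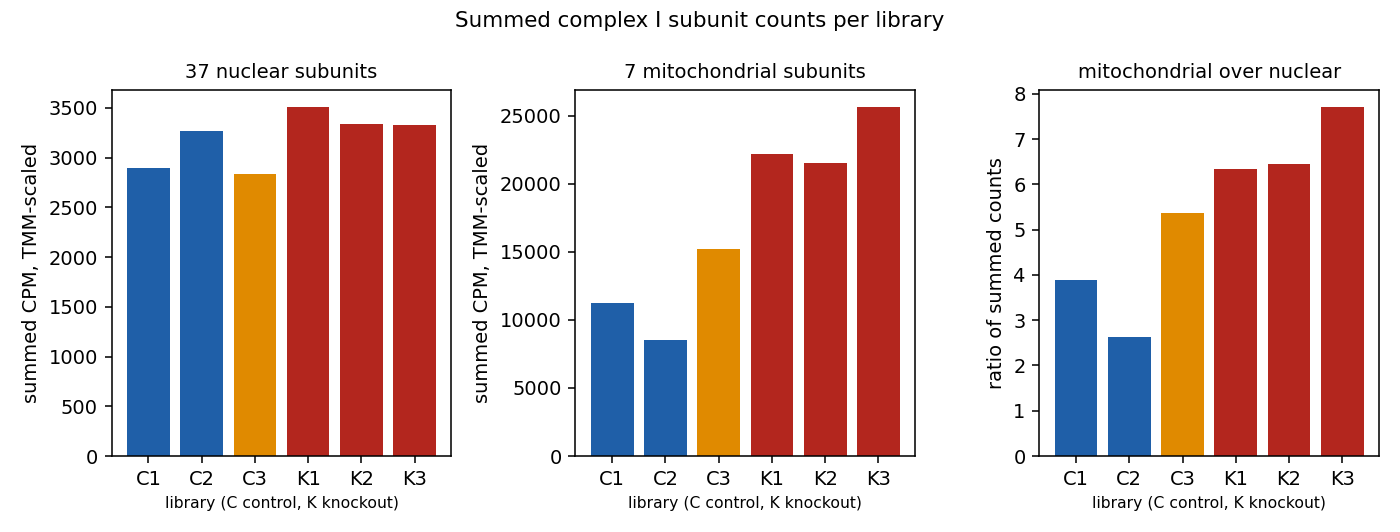
Summed CPM of the 37 nuclear subunits, summed CPM of the 7 mitochondrial subunits and the ratio of mitochondrial to nuclear subunit counts (vertical axes from 0), 1 bar per library, with control replicate 3 in orange. The ratio lies between 2.62 and 5.37 in the controls and between 6.34 and 7.70 in the knockout libraries, and control replicate 3 is the highest control.

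The other mRNAs of the same genome moved as well. All 6 other mRNAs of the mitochondrial genome rose, with a median log2 fold change of 1.22. These were MT-CYB of complex III (2.23-fold, log2 fold change 1.15), MT-CO1, MT-CO2 and MT-CO3 of complex IV (1.24, 1.19 and 0.59) and MT-ATP6 and MT-ATP8 of the ATP synthase (1.34 and 2.01), with edgeR adjusted p-values between 0.0037 and 0.023. Of the 6 fits that each left out one library, MT-CYB was called in 6, MT-CO1 and MT-CO2 in 4, MT-ATP6 in 3, MT-ATP8 in 2 and MT-CO3 in 1, with MT-CO3 lowest at 0.51 and MT-ATP8 highest at 2.49. With quantile normalization the fold changes of MT-CO1 and MT-CO3 were 0.00 and -0.06. The complex I subunits made up 30.4%, 26.6% and 34.0% of mitochondrial mRNA across the control replicates and 27.8%, 28.3% and 29.6% across the knockout replicates, an overlapping range with the highest share in control replicate 3. All mitochondrial genes together took 4.63%, 3.97% and 5.57% of counts against 9.15%, 8.70% and 10.1%, higher in every knockout library. MT-RNR2, the large ribosomal RNA, rose (log2 fold change 1.03, edgeR adjusted p = 0.00987), but was not called without knockout replicate 1 or 3 (1.02 and 0.98), nor with limma-voom and quantile normalization (0.10, limma adjusted p = 0.521). MT-RNR1, the small one, had 475, 457 and 1370 CPM across the controls and 1982, 1762 and 2087 CPM across the knockout libraries. MT-RNR1 had a log2 fold change of 1.34 with an edgeR adjusted p of 0.087, and of 2.03 without control replicate 3, where it was called. DESeq2 (adjusted p = 0.0124) and limma-voom with quantile normalization (adjusted p = 0.0419) also called it, at 1.33 and 1.48.

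Among 19 assembly factors, which build the complex without remaining in it, 2 rose and 1 fell (15.8%, near the 16.6% of all genes tested), with a median log2 fold change of 0.21. When control replicate 3 was left out, 9 of the 19 were called higher and 4 lower, beside 32.4% and 33.2% of all genes tested. NDUFAF2, the paralog that holds the place of NDUFA12, had 29.98, 27.6 and 29.9 CPM across the controls and 50.7, 44.5 and 52.7 CPM across the knockout libraries. NDUFAF2 rose without overlap, by 0.76 ± 0.10 on the log2 scale (edgeR adjusted p = 0.00955). NDUFAF8, a partner of the arginine-modifying factor NDUFAF5, had 156, 179 and 147 CPM against 251, 220.3 and 222 CPM and rose by 0.52 ± 0.11 (edgeR adjusted p = 0.0278). ECSIT, of the intermediate assembly complex of the membrane arm, had 43.1, 50.5 and 65.0 CPM against 30.7, 34.4 and 31.6 CPM and fell, with a log2 fold change of -0.71 ± 0.16 (edgeR adjusted p = 0.0341). Among the 6 fits that left out one library, NDUFAF2 was called in 4, ECSIT in 2 and NDUFAF8 only in that without control replicate 3 (0.44), and the fold changes kept their direction. In ECSIT, control replicate 3 was the control farthest from the knockout libraries. NUBPL, which delivers iron-sulfur clusters and was the least abundant of the list, had 9.84, 8.59 and 18.9 CPM across the control replicates and 18.3, 17.8 and 17.6 CPM across the knockout replicates. Its control replicate 3 lay above the knockout libraries and the other controls far below, and its adjusted p was 0.263 in edgeR.

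Of 30 genes for transcription, processing, stability and replication in the mitochondrion, 1 rose and 1 fell (6.67%, against 16.6% of all genes tested), beside a median log2 fold change of 0.10. These counts depended on control replicate 3. In the fit without it, 11 of the 30 were called higher and 10 lower, beside 32.4% and 33.2% of all genes tested. SLIRP, which with LRPPRC stabilises mitochondrial mRNAs, had 56.5, 68.7 and 95.0 CPM across the controls and 126, 119 and 129.8 CPM across the knockout libraries and rose by 0.77 ± 0.19 (edgeR adjusted p = 0.043). FASTK, known to be needed for the MT-ND6 mRNA, had 98.3, 118 and 94.3 CPM against 72.3, 69.5 and 65.9 CPM and fell, with a log2 fold change of -0.58 ± 0.11 (edgeR adjusted p = 0.0221). Neither gene overlapped between the groups, and both were called in 1 of the 6 fits that each dropped a library, that without control replicate 3 (0.96 and -0.68). With library size alone, SLIRP was not called (edgeR adjusted p = 0.0573). PRORP, the nuclease of mitochondrial RNase P and the least abundant of the list, had a log2 fold change of 0.45 with an edgeR adjusted p of 0.139. The polymerase POLRMT and the transcription factor TFAM stood at -0.35 and 0.32 and did not pass. PRORP and TFAM were higher in every knockout library, while POLRMT overlapped between the groups. Without control replicate 3, PRORP (0.576) and TFAM (0.189) were called higher and POLRMT (-0.516) lower. Among 10 nuclear regulators, HCFC1, a coregulator of respiratory promoters, fell from 193 ± 15.4 to 142 ± 11.2 CPM (SD, n = 3 each). The log2 fold change was -0.44 with an edgeR adjusted p of 0.0378. This was 10.0% of the list, beside 16.6% of all genes tested, and 0 regulators rose in edgeR. An unadjusted p under 0.05 was found for 3 of the list, beside 16.1% of all genes higher and 18.4% lower. HCFC1 was likewise called in 1 of the 6 fits, that without control replicate 3, at -0.53. In that fit, 4 of the 10 regulators were called higher and 5 lower, beside 32.4% and 33.2% of all genes tested. PPARGC1A, the coactivator PGC-1alpha and the least abundant regulator, had 3.05, 2.69 and 6.07 CPM against 4.87, 4.53 and 4.30 CPM, with control replicate 3 above all knockout libraries.

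NDUFB9 stood apart from the other nuclear subunits, and its chromosomal neighbours, chosen after its value was seen, were listed beside it. It lies on chromosome 8 from 124539123 to 124549979 (GRCh38). The 4 nearest protein-coding genes tested on each side were TMEM65, TRMT12, RNF139 and TATDN1, and MTSS1, ZNF572, SQLE and WASHC5. Exons of TATDN1 and MTSS1 overlap those of NDUFB9 on the opposite strand (13.2% of its merged exon bases). The paper describes strand-specific libraries, but the strand setting of the counting is not given. Whether reads of these genes were kept apart from those of NDUFB9 there is therefore not known. All 8 rose in the knockout libraries, beside 7.96% of all genes tested. None of the 8 overlapped between the groups, where 21.5% of all genes tested had the knockout libraries higher without overlap. Ratios of the means ran from 1.66 for TRMT12 to 3.51 for MTSS1. SQLE, the squalene epoxidase of sterol synthesis, had 156, 165 and 201 CPM across the control replicates and 436, 406 and 420.0 CPM across the knockout replicates, with a log2 fold change of 1.27 ± 0.12 (edgeR adjusted p = 0.00404), close to the 1.33 of NDUFB9. RNF139, a ubiquitin ligase of the endoplasmic reticulum, rose by 1.15 ± 0.09 on the same scale (edgeR adjusted p = 0.00277). With a single library left out at a time, NDUFB9, SQLE and RNF139 were called in 6 of 6 fits, TMEM65 in 5, WASHC5 in 4, TRMT12 and TATDN1 in 2, and MTSS1 and ZNF572 in 1, that without control replicate 3, where MTSS1 stood at 2.52. Over the 504 protein-coding genes of chromosome 8 tested, the median log2 fold change was 0.26, 102 rose (20.2%) and 18 fell, beside 7.96% and 8.67% of all genes tested.

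**Figure D4:**
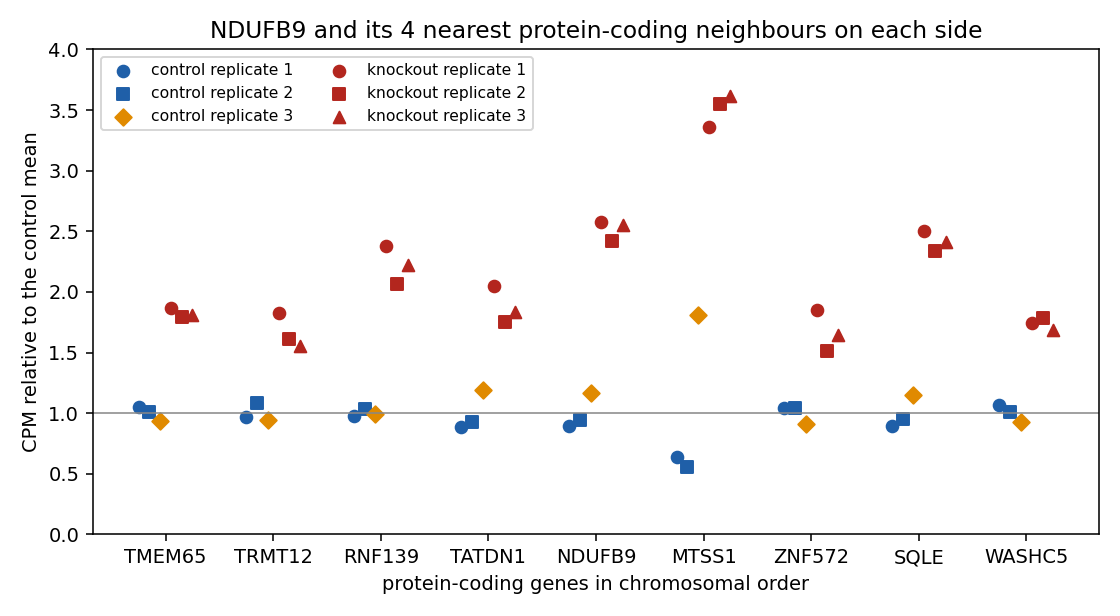
CPM of NDUFB9 and its 4 nearest tested protein-coding neighbours on each side, divided by the mean of the controls (vertical axis, ratio), in chromosomal order, 1 point per library. All knockout libraries lie above all controls for each of the 9 genes, and the ratios of the means run from 1.66 to 3.51, with control replicate 3 of MTSS1 the highest control.

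Levels between genes were compared per kilobase. As means over all 6 libraries, the mitochondrial subunits lay between 1973 and 4241 CPM per kb (median 2553). MT-ND4 was the highest in every library. MT-ND6 was the lowest in every control, but not in the knockout libraries, where it stood at 2746, 3009 and 3815 CPM per kb against 2503, 2744 and 2689 for MT-ND1. On the length of the canonical transcript the nuclear subunits, again as means over 6 libraries, lay between 0.496 and 503 CPM per kb, with a median of 91.8, and on the length of all merged exons between 0.207 and 455, with a median of 22.3. The lowest values were found where gene models overlap. In 5 nuclear subunits, NDUFV2 (90.0%), NDUFA13 (83.9%), NDUFA7 (77.9%), NDUFB8 (72.0%) and NDUFA11 (68.2%), over 50% of the canonical bases lie within exons of another gene on the same strand in GENCODE v44. How reads in shared exons were counted is not given in the sources used here, and the levels of these 5 genes are uncertain. The overlapping genes of NDUFV2, NDUFA11, NDUFA7 and NDUFB8 held few counts, from 0 in every library for that of NDUFV2 to between 3 and 17 for that of NDUFB8. NDUFA13, with between 162 and 414 counts, overlaps YJEFN3, which held more counts than NDUFA13 in every library (between 566 and 1190), and a gene listed as ENSG00000258674, with between 145 and 249. Without these 5 genes, 2 of 32 nuclear subunits rose (6.25%, near the 7.96% of all genes tested), and the median log2 fold change was 0.15. Exons on the opposite strand cover 51.3% of the canonical bases of NDUFS7, 27.4% of NDUFA2, 24.3% of NDUFB2 and 23.9% of NDUFB9.

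**Figure D5:**
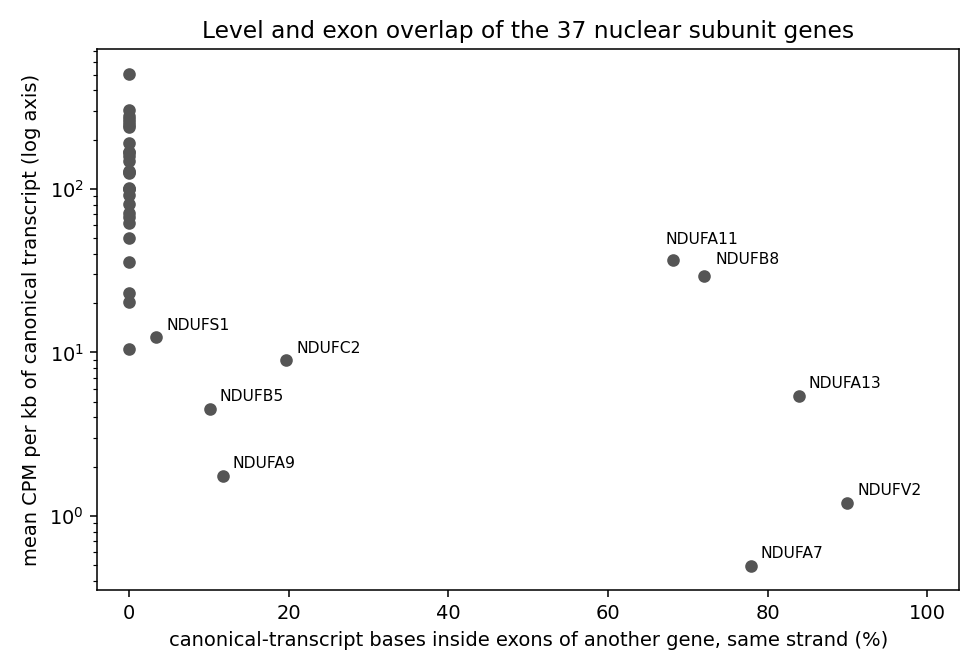
Mean CPM per kb of canonical transcript (vertical axis, logarithmic) against the percent of canonical bases inside same-strand exons of another gene (horizontal axis), 1 point per nuclear subunit. The 9 labelled genes share exons, and NDUFA7, NDUFV2 and NDUFA13, at 77.9%, 90.0% and 83.9%, are among the lowest.

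Processed copies of subunit genes held reads as well. NDUFV2P1 had 3376, 4158 and 2805 counts across the control replicates and 2382, 2575 and 2219 counts across the knockout replicates, against about 1 CPM for NDUFV2 itself. The transcripts are identical at 681 of 694 aligned positions (98.1%). A stretch of 60 bases of the coding region shows how few positions tell them apart, with the differing bases in capitals.
NDUFV2: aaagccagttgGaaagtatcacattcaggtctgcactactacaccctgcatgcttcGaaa
NDUFV2P1: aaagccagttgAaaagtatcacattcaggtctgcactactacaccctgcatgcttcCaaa
When the counts of both genes were added, the log2 fold change turned from 0.54 to -0.34, so that no direction can be given for NDUFV2. NDUFA4P1 likewise had between 5866 and 9707 counts and is identical to NDUFA4 at 240 of 246 aligned positions. Of the copies of mitochondrial genes, MTND2P28 had 549, 586 and 651 counts across the controls and 1181, 1323 and 1541 across the knockout libraries, small beside MT-ND2, whose own mRNA moved the same way. Adding the named copies to each subunit left the same 7 members called.

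The promoters of the nuclear subunits were searched for 3 short motifs known from respiratory genes, on both strands, over 250 bases before and 50 bases after the RefSeq start (GRCh38.p14). A window was given for 33 of the 37 genes, and NDUFB5, NDUFB9, NDUFC2 and NDUFS5 had no entry. A gene with several starts was counted where any of its windows held the motif. The NRF1 core GCATGCGC, whose reverse complement GCGCATGC overlaps it when both are present, occurred in 6 of the 33 (18.2%) and in 3.68% of all 27305 genes with a window. The ETS core CCGGAAG, read by GABP, occurred in 5 (15.2%) against 12.2%, and the YY1 core AAGATGGC in 7 (21.2%) against 3.52%. At least 1 of the motifs was found in 16 members (48.5%) and in 17.6% of all genes. No filter for protein-coding genes was set on the 27305, whereas the members are all protein-coding. Windows are shown for NDUFB8, which rose, and NDUFS7, whose level was lower without passing the test, because both hold the same motif. NDUFB8 has 2 windows from 2 RefSeq starts, and the other one, on chromosome 10 from 100529874 to 100530173, holds none of the motifs. Capitals mark the motifs, and the windows are chr10:100529822-100530121 on the minus strand for NDUFB8 and chr19:1383657-1383956 on the plus strand for NDUFS7, both written 5′ to 3′ along the gene.
NDUFB8: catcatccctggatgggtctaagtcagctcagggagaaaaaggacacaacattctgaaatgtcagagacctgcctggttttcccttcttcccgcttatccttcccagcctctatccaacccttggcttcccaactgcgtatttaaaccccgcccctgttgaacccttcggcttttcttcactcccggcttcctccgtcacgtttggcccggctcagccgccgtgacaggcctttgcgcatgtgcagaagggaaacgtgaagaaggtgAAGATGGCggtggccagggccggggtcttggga
NDUFS7: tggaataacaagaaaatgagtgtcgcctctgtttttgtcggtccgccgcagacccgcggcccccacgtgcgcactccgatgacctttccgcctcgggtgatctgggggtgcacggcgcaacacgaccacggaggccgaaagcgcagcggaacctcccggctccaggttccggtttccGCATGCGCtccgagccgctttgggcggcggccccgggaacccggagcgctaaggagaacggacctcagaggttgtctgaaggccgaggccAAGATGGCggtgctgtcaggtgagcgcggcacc
Both printed windows hold the YY1 core 18 bases after the start, and NDUFS7 also holds the NRF1 core beginning 73 bases before it. These matches describe letters in the windows only.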

How the data were processed

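The authors deposited whole-number read counts per Ensembl gene for 6 poly(A)-selected libraries, without normalization. The submitters' processing notes name STAR 2.7.10b, featureCounts 2.0.0 and hg38, the paper's methods name Trimmomatic and Salmon on hg38, and the labels' extract protocol names hg19. Libraries were made strand-specific with dUTP, according to the paper's methods. The annotation release, the strand setting of the counting and the treatment of reads with several matches are not given in the sources used here. Columns without a sample numbered 0, the table held no columns of the authors' own comparisons, and 60878 of 62754 identifiers were matched to a symbol.

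Counts were scaled by TMM in edgeR 4.0.16 (R 4.3.3), genes with low counts were left out by filterByExpr with a minimum count of 10, and groups were compared by the two-sided quasi-likelihood F-test with Benjamini-Hochberg adjustment over all 20992 genes tested, called at an adjusted p of at most 0.05. The common dispersion was 0.0854, with 2.44 prior degrees of freedom. The fit was also run on simulated data with 200 changed genes, and nothing in the results above rests on that run. Alternatives were DESeq2 1.42.0, limma-voom with quantile normalization (limma 3.58.1), other scalings and filters, a fold-change threshold, leaving out each library and the replicate number as a block. Member lists and tests were chosen with earlier results of these data known. The symbol rule found 45 genes, of which 1 is not reported here and was left out of the members' counts, medians and sums. Named were all mitochondrial and nuclear core subunits reported, called accessory subunits or, with fewer than 6, the 6 with the largest absolute fold change, the nuclear subunits highest and lowest per length, NDUFA4 and NDUFAB1, called genes and the least abundant gene of the other lists, the other mitochondrial mRNAs and SINHCAF. The neighbours of NDUFB9, the copies and NDUFB6 were named after seeing their values, and POLRMT and TFAM for their role. Gene lengths and exon overlaps came from GENCODE v44 on GRCh37, and coordinates and promoters from RefSeq GRCh38.p14, matched by symbol. No coordinates were converted.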

Additional observations from a re-analysis of the deposited data

How the results depend on the processing

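The number of calls depended on the fit, and the cause was not tested. DESeq2 called 5581 genes of the whole table and 13 complex I subunits (7 nuclear), against 3491, 7 and 3 in edgeR, and limma-voom with quantile normalization called 5 nuclear subunits. A log2 fold-change threshold of 1 left 1482 genes, 3 subunits, 1 nuclear and 2 mitochondrial. Without the low-count filter 2587 genes were called, among them 1 nuclear and 5 mitochondrial subunits, with NDUFB8 and NDUFA12 lost and MT-ND4L gained (edgeR adjusted p = 0.0485). Leaving out one library gave between 167 and 14221 calls over the whole table, between 1 and 29 over all subunits, between 1 and 22 over the nuclear and between 0 and 7 over the mitochondrial subunits, in each case most without control replicate 3. The replicate numbers did not pair the libraries: deviations from the group means correlated by 0.01, 0.03 and -0.04 between same-numbered libraries. With the number as a replicate block, 407 genes and 2 subunits, 1 nuclear (NDUFB9) and 1 mitochondrial (MT-ND6), were called. Among the genes named by rule, subunits whose log2 fold change turned from positive to negative were NDUFS8 (-0.013 without control replicate 1, up to 0.214 without control replicate 3), NDUFV1 (-0.043 and 0.285 in the same fits), NDUFA4 (-0.023 without control replicate 3, up to 0.313 without control replicate 2) and NDUFAB1 (-0.020 and 0.131 in those fits, and -0.046 with library size alone). Outside the rule, NDUFB3 (-0.161), NDUFA5 (-0.063) and NDUFS6 (-0.012) turned negative without control replicate 3. NDUFV2 stood at -0.342 with its copies added, a setting chosen after seeing the data. MT-CO1 (0.000) and MT-CO3 (-0.062) lost their positive sign under quantile normalization, which by construction gives the highest ranks of every library the same values. The median log2 fold change of the mitochondrial subunits was 0.89 with library size alone and between 0.79 and 1.27 without one library, and that of the nuclear subunits was 0.03 with library size alone. Canonical length in place of merged exons and library size without the mitochondrial genes were also chosen after seeing the data. Depth was similar throughout, between 88361827 and 93346824 counts per library.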
